A study of Mus musculus with 2 samples.

Results

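The serum amyloid A genes Saa1, Saa2, Saa3 and Saa4 were followed through 2 single-cell RNA libraries of mouse liver, 1 from healthy mice and 1 from mice with chronic injury by carbon tetrachloride (CCl4), a toxin that is activated inside hepatocytes and causes repeated damage and scarring. The 4 genes were taken by their Ensembl identifiers (ENSMUSG00000074115, ENSMUSG00000057465, ENSMUSG00000040026 and ENSMUSG00000040017) and were 4 of the 30406 genes measured in both libraries. They were chosen because Saa3 rose from 1 captured molecule to a very large number in mesothelial-like cells, so the levels of Saa3 in that comparison are a description and not a test.

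Serum amyloid A proteins are small apolipoproteins that travel on high-density lipoprotein. Saa1 and Saa2 are made mainly by hepatocytes and are among the steepest responders of the acute phase, the change in liver secretion that follows the cytokines interleukin 6 and interleukin 1. Saa3 is the form made mostly outside hepatocytes in mice, by stromal, epithelial and myeloid cells, and Saa4 is known as the constitutive form.

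Both groups carried Col1a2-CreER: Rosa26-tdTomato, alleles that let cells with Col1a2 promoter activity be marked red after tamoxifen, on a C57BL/6 background. Per the study's methods mice of 8 to 10 weeks were used, the injured ones received CCl4 at 10% in corn oil, 2.5 µL per gram body weight, 2 times a week for 12 weeks, and beads against CD45, a surface protein of blood-derived cells, were used to deplete those cells. How many mice went into each library is not given in the sources used here, and with 1 library per group no test, SD or p-value was possible. Condition, library, depth and cell yield therefore cannot be told apart in any ratio below, and all intervals are 95% intervals for counting error only.

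Each value is a count of unique molecular identifiers (UMIs), 1 for each captured RNA molecule, read at the 3′ end, and CPM is UMIs per 1000000 UMIs of the same cells. The healthy library held 51122846 UMIs in 6297 barcodes and the CCl4 library 97611831 UMIs in 8460 barcodes, of which 5602 and 7314 cells were kept, with medians of 6799 and 11894 UMIs per cell. The libraries shared 10 cell barcodes. Cells were clustered without the Saa genes and named from marker genes. Cell yield by named class differed strongly. Endothelial-like cells numbered 3512 in the healthy and 8 in the CCl4 library, and mesenchymal-like cells 10 and 3151. Hepatocyte-like cells numbered 164 and 5, and mesothelial-like cells 232 and 892. These numbers leave out unnamed clusters, among them 1 with 12 endothelial markers (50 and 642 cells), whose leading genes included those of another class. A further hepatic cluster with few UMIs per cell (159 and 324 cells) carried 12 of 16 hepatocyte markers but had no such marker among its leading genes, and is called the low-UMI hepatic cluster.

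In the RefSeq annotation (GRCm38.p6) the 4 genes lie within 42316 bases of chromosome 7. Saa3 spans chr7:46711998-46719615, Saa4 chr7:46727992-46732603 and Saa1 chr7:46740497-46743181, all on the minus strand, and Saa2 spans chr7:46751833-46754313 on the plus strand, so that Saa1 and Saa2 point away from each other across 8651 bases. The 250 bases before the transcript start that the RefSeq promoter table lists are shown for Saa3, the member with the highest level, and for Saa1 and Saa2, the near-identical pair. For Saa2 and Saa4 that start is the outer end of the gene, whereas for Saa1 it lies 201 bases and for Saa3 3939 bases inside the span given above, so the Saa1 and Saa3 windows precede an inner start. They are given 5′ to 3′ in the direction of transcription, from chr7:46742981-46743230 (minus strand) for Saa1, chr7:46751583-46751832 (plus strand) for Saa2 and chr7:46715677-46715926 (minus strand) for Saa3. Capitals mark every match to TTGCNNAA, a pattern of C/EBP factors, which take part in acute-phase transcription, and to a core promoter pattern spelled TATANA, on either strand, where overlapping matches run together.
Saa1: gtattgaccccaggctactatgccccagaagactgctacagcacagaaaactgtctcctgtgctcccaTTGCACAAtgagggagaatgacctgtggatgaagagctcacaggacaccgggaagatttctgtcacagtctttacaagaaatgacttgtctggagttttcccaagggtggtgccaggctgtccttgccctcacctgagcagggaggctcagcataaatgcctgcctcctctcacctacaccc
Saa2: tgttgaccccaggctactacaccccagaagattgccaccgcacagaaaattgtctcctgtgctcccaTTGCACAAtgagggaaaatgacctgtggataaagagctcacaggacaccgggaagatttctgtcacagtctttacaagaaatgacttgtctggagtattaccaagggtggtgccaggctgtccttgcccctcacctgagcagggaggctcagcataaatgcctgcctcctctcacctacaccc
Saa3: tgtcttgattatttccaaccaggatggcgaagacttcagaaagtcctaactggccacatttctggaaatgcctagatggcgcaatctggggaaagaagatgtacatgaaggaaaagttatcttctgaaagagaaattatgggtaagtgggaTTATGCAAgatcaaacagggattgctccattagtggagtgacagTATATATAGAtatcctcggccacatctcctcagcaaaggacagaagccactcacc

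The Saa1 and Saa2 windows were 94.8% identical and each held 1 C/EBP match with the same 8 letters, whereas the Saa3 window was 48.9% identical to that of Saa1. In Saa3 the C/EBP pattern lay on the opposite strand, 92 to 99 bases before the start, and a run of overlapping TATA matches began 55 bases before it. The Saa4 window, not shown, held C/EBP matches 45 to 52 and 238 to 245 bases before its start. Of 32851 mouse promoter windows of the same length, 9.56% held the C/EBP pattern and 22.6% the TATA pattern. Neither TTCNNNGAA, a STAT pattern found in 7.02% of all windows, nor the NF-kB consensus (3.90%) was found in the windows of the 4 genes. These matches describe letters and not binding.

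The likeness of Saa1 and Saa2 also bears on how reads are assigned. Their reference transcripts (GENCODE vM39) agreed at 94.8% of 649 aligned bases. The longest identical run was 99 bases over the whole transcripts and 73 bases within the last 400, where 3′ reads fall, and no 90-base window of those last 400 bases recurred in another member. Saa1 and Saa2 values are therefore given apart and summed, and their split is uncertain. The longest run that Saa3 shared with Saa1 in the last 400 bases was 17 bases.

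Saa3 was almost absent from the healthy liver cells. It had 183 UMIs in 5602 cells, 149 of them in hepatocyte-like cells, and 96 of these came from 1 cell. That cell had 7.67 times the median UMIs of its population. It also held 2753 UMIs of albumin (Alb) and none of the 9 mesothelial markers. Without that cell the hepatocyte-like cells held 53 Saa3 UMIs. Endothelial-like cells held 19 UMIs (0.942 CPM), cholangiocyte-like cells 12 (0.667 CPM) and mesothelial-like cells 1 UMI in 232 cells (0.263 CPM, interval 0.00667 to 1.47). The healthy mesothelial-like level was not distinguishable from that of endothelial-like cells, since their intervals overlapped.

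In the CCl4 library Saa3 reached 708790 UMIs, and 54.5% of them were in mesothelial-like cells. These 892 cells held 386178 Saa3 UMIs, or 23606 CPM (interval 23532 to 23681), so that 2.36% of all their captured RNA molecules were Saa3. It ranked 2 by UMIs among all genes of these cells. The cells had a median of 267 Saa3 UMIs, from 13 at the 10th percentile to 1014 at the 90th and 3537 in the highest cell. The ratio to the healthy mesothelial-like cells was 89603, with a counting interval from 16082 to 3539130 because the healthy value was 1 UMI, and it was the highest ratio of 13249 genes. The 892 CCl4 cells formed a cluster with 3 healthy cells, and the other 229 healthy cells a cluster of their own, so cluster and library cannot be told apart.

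**Figure D1:**
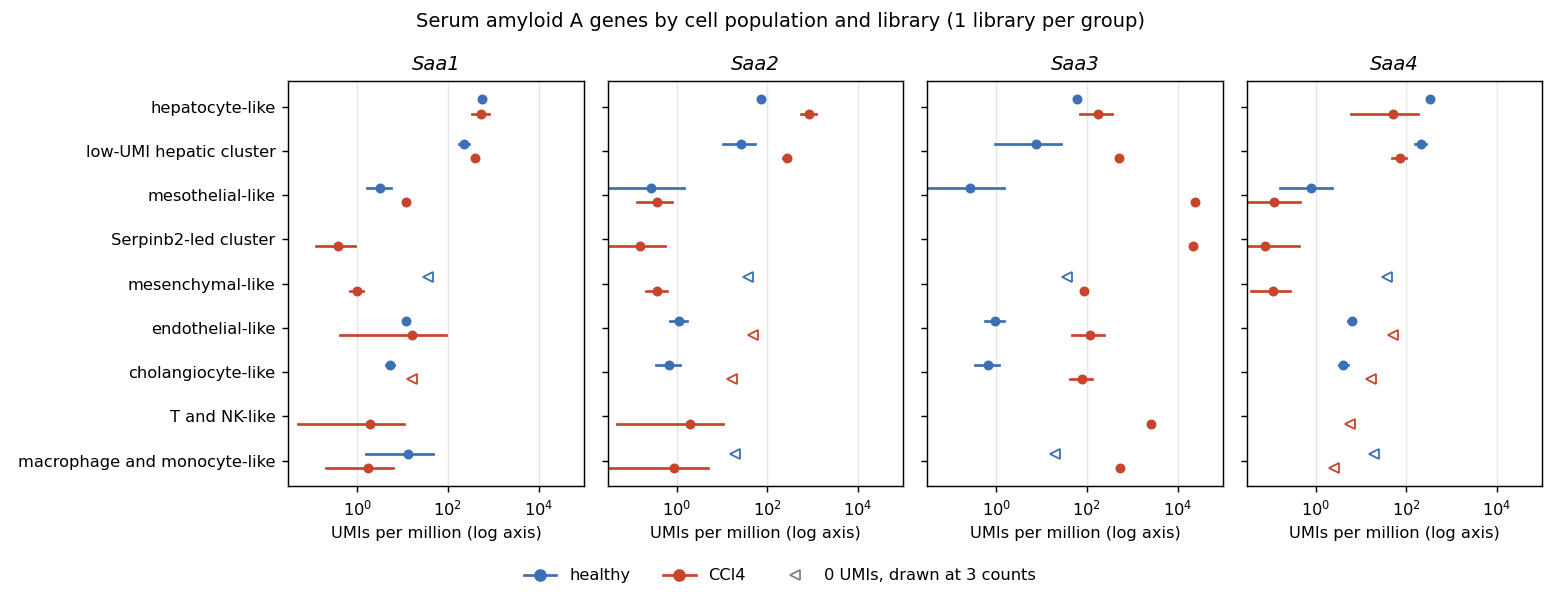
Levels of the 4 genes (columns) in 9 cell populations (rows) in CPM on a log axis, healthy in blue and CCl4 in red. Points are sums over the cells of 1 library, bars are 95% Poisson intervals, triangles mark 0 UMIs drawn at 3 counts, and populations with fewer than 5 cells in a library are left out. Saa3 stands at 23606 and 22368 CPM in the mesothelial-like cells and the Serpinb2-led cluster of the CCl4 library, while Saa1, Saa2 and Saa4 are highest in the hepatic cells.

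Mesothelial cells are the flat lining of the liver surface and peritoneal cavity. All 9 mesothelial markers were found in both libraries, at a summed level of 9281 CPM in healthy and 4022 CPM in CCl4 mesothelial-like cells. Mesothelin (Msln) was at 2519 and 604 CPM, uroplakin 3b (Upk3b) at 2001 and 930 CPM, and the transcription factor Wt1 at 295 and 324 CPM. Mesenchymal markers summed to 8202 and 6333 CPM with 15 of 15 detected in each, although Pdgfra, a receptor of fibroblasts, was at 1.32 and 229 CPM. Neutrophil markers were at 0 in the healthy and 7.95 CPM in the CCl4 mesothelial-like cells, and macrophage and monocyte markers at 46.6 and 227 CPM, with 10 and 13 of 13 detected. The part of these markers in the Saa3 level was not tested.

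A second population in the CCl4 library held Saa3 at nearly the same level. This cluster of 638 cells had no healthy cell and was led by Serpinb2, Enpp2, Chl1, Cxcl5, Fndc1, Calca and Cxcl13. It received no cell type name because no class had more than 1 marker passing the naming rule. For the hepatocyte class this was transferrin (Trf). This population is called the Serpinb2-led cluster. It held 294509 Saa3 UMIs, 22368 CPM (interval 22287 to 22449), with a median of 309 UMIs per cell, and Saa3 ranked 3 among its genes. All 9 mesothelial markers were detected in it, but at a summed 735 CPM. Each lay between its levels in CCl4 mesenchymal-like and mesothelial-like cells, with Wt1 at 267 CPM. Its mesenchymal markers summed to 15080 CPM, among them the matrix proteoglycan decorin (Dcn) at 8200 CPM and Pdgfra at 435 CPM. Each mesenchymal marker except Pdgfra was lower than in the CCl4 mesenchymal-like cells, such as the collagen Col3a1 at 4060 against 7846 CPM. Together the mesothelial-like cells and the Serpinb2-led cluster held 96.0% of all Saa3 UMIs of the CCl4 library.

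Saa3 was also uneven among cells of 1 population. Cells with 50 or more Saa3 UMIs numbered 1240 (17.0% of CCl4 cells) and held 98.3% of the Saa3 UMIs. They were 707 of 892 mesothelial-like cells (79.3%, interval 76.4 to 81.9) and 489 of 638 cells of the Serpinb2-led cluster (76.6%, interval 73.2 to 79.9), intervals that overlap. The 185 mesothelial-like cells under 50 UMIs still held a median of 14 Saa3 UMIs and 1336 CPM, against 27535 CPM in the others, and had a median depth of 13180 against 18387 UMIs. Their mesothelial markers summed to 4473 CPM against 3942 CPM, and the secreted lipocalin Lcn2 was at 102 against 355 CPM.

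Smaller numbers of such cells lay elsewhere. In a cluster led by cell-cycle genes (Pimreg, Cenpf, Kif2c and others), 37 of 351 cells (10.5%) held 50 or more Saa3 UMIs, while the median cell held 1. These 37 cells had mesothelial markers at 779 CPM and the collagen Col3a1 at 2492 CPM, against 181 and 8283 CPM in the other 314. A cluster of 72 cells with mesothelial markers and a median of 2094 UMIs had a median of 4 Saa3 UMIs and 3094 CPM. Single high cells were found among T and NK-like cells (2 of 110, with 773 and 466 Saa3 UMIs) and macrophage and monocyte-like cells (1 of 201, with 431), and all 3 also held mesothelial marker UMIs (57, 35 and 84) and 3.21 to 5.995 times the median UMIs of their population. Mesenchymal-like cells, the most numerous at 3151, held 2 such cells.

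**Figure D2:**
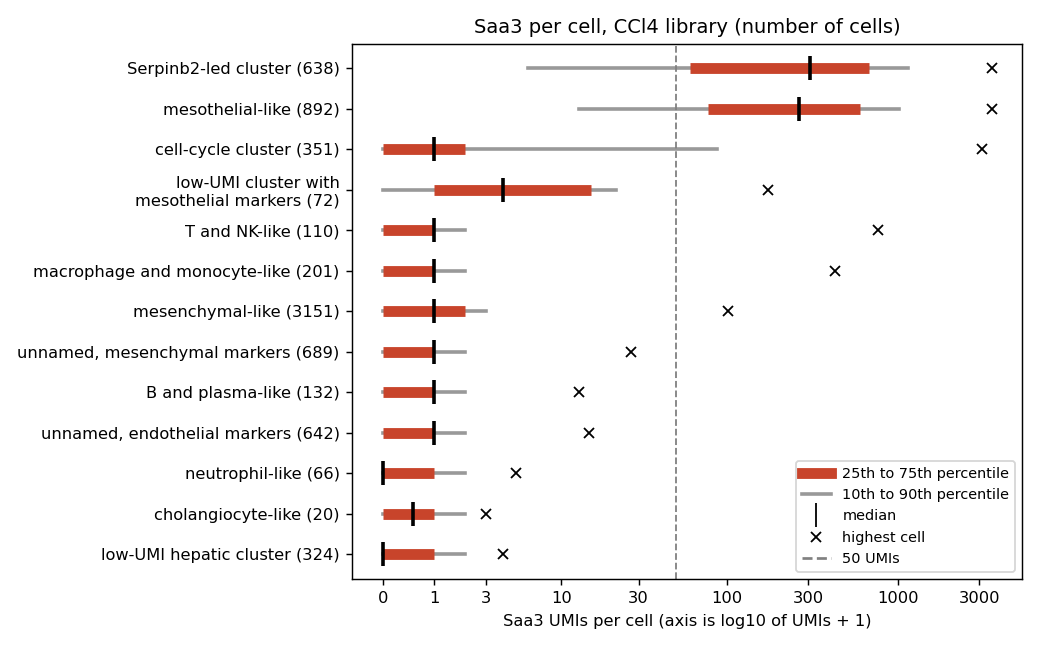
Saa3 UMIs per cell in each CCl4 population of at least 20 cells, on an axis of log10 of UMIs + 1, with the number of cells in brackets. Red bars span the 25th to 75th percentile, grey lines the 10th to 90th, black bars mark the median and crosses the highest cell. Medians are 309 and 267 in the upper 2 populations, 4 in the low-UMI cluster with mesothelial markers and at most 1 elsewhere.

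Most other CCl4 populations held Saa3 at a low rate. Without the cells of 50 or more Saa3 UMIs, T and NK-like cells, the lymphoid reference for free RNA, held 0.889 Saa3 UMIs per droplet, macrophage and monocyte-like cells 0.93 and mesenchymal-like cells 1.14. B and plasma-like cells held 0.939, neutrophil-like cells 0.742, cholangiocyte-like cells 0.700, a cluster with endothelial markers 0.866 and the low-UMI hepatic cluster 0.698. The low-UMI hepatic cluster, the shallowest at a median of 883.5 UMIs, had the lowest of these rates. Mesenchymal-like cells, the deepest at 13762 UMIs, had the highest. The rates differed far less than the depths. The rate given here for the lymphoid cells (T and NK-like, B and plasma-like) is called the background rate below. RNA that reaches droplets from other cells is 1 possible source of it, which was not tested. Of T and NK-like cells 52.7% had a Saa3 UMI, at a median of 4144 UMIs. Of mesothelial-like cells 99.1% (interval 98.2 to 99.6) had a Saa3 UMI, at a median of 17564. After thinning each cell to 2000 UMIs the shares were 31.1% (10 of 110 cells left out as shallower) and 94.9% (0 of 892 left out).

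**Figure D3:**
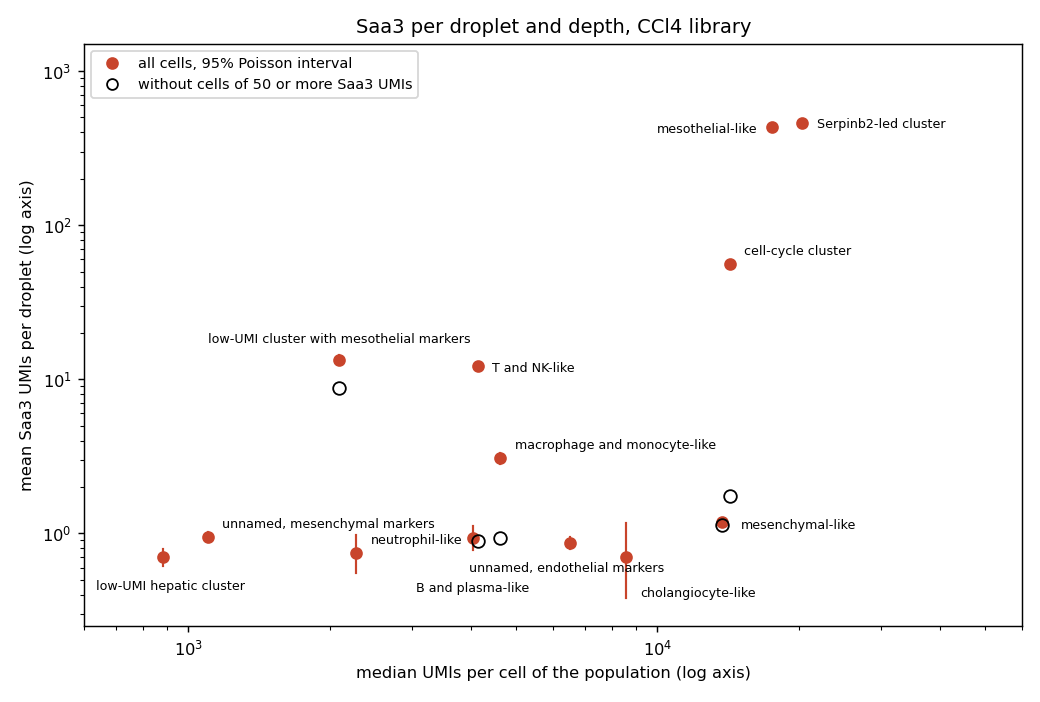
Mean Saa3 UMIs per droplet against the median UMIs per cell of each CCl4 population of at least 20 cells, both on log axes. Red points are all cells with 95% Poisson intervals, and open circles leave out cells of 50 or more Saa3 UMIs (drawn for populations under 100 UMIs per droplet that hold such cells). Populations near 1 UMI per droplet span 883.5 to 13762 UMIs of depth and lie far below the mesothelial-like cells (433) and the Serpinb2-led cluster (462).

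Per droplet, Saa3 in the low-UMI hepatic cluster of the CCl4 library was no higher than the background rate. Per UMI it was higher than in B and plasma-like cells (204 CPM). Whether droplets of unlike depth take up equal amounts of free RNA was not tested. The low-UMI hepatic cluster went from 2 to 226 Saa3 UMIs (7.54 to 499 CPM), a ratio of 66.2 (interval 18.1 to 550), yet its 0.698 UMIs per droplet were no more than those of lymphoid cells, and no cell held more than 4. The 5 hepatocyte-like cells held 7 Saa3 UMIs. Cholangiocyte-like cells went from 12 to 14 UMIs in 1270 and 20 cells, a CPM ratio of 114 (interval 49.1 to 271). In that comparison 4.26% of genes were at least 2-fold higher and 8.37% at least 2-fold lower. Per droplet these CCl4 cells too were no higher than the background rate. The cluster with endothelial markers went from 0 UMIs in 50 cells to 556 in 642, in a comparison where 59.4% of genes were at least 2-fold higher and 11.9% lower. Its rate per droplet was also no higher than the background rate.

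Saa1 and Saa2 were highest in CPM in the hepatic populations of both libraries. Of 1810 healthy Saa1 UMIs 80.1% were in the 2 hepatic populations together, and of 226 healthy Saa2 UMIs 81.9%. In the CCl4 library the hepatic populations held 83.7% of 184 Saa2 UMIs but 43.9% of 456 Saa1 UMIs, with 42.1% in the more numerous mesothelial-like cells. Hepatocyte-like cells of the healthy library held 1389 Saa1 UMIs (558 CPM, interval 529 to 588), and 126 of 164 cells had at least 1. The values varied widely between cells, with a median of 2 UMIs and 235 in the highest cell, which held 16.9% of the Saa1 UMIs of the population. That cell had 11.2 times the median UMIs of its population. The 5 hepatocyte-like cells of the CCl4 library held 22 Saa1 UMIs (546 CPM, interval 342 to 827), which overlaps the healthy interval.

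Saa2 was higher in hepatic cells of the CCl4 library. Hepatocyte-like cells held 178 Saa2 UMIs in 164 healthy cells (71.5 CPM) and 33 in 5 CCl4 cells (819 CPM), a ratio of 11.4 (interval 7.65 to 16.7). The low-UMI hepatic cluster held 7 UMIs in 159 healthy cells (26.4 CPM) and 121 in 324 CCl4 cells (267 CPM), a ratio of 10.1 (interval 4.77 to 25.7). In that cluster Saa1 went from 61 to 178 UMIs (230 to 393 CPM), a ratio of 1.71 (interval 1.27 to 2.33). As the UMIs were assigned, Saa2 thus differed more than Saa1 in both hepatic populations, of which 1 had 5 CCl4 cells. The Saa2 ratio of the low-UMI cluster alone was not run under other settings.

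The split between these near-identical genes differed between the libraries. Saa2 made up 11.4% of Saa1 and Saa2 UMIs in healthy hepatocyte-like cells and 10.3% in the healthy low-UMI cluster, and 60.0% and 40.5% in the same populations after CCl4. Over all hepatic cells the share was 11.3% (interval 9.82 to 12.95) and 43.5% (interval 38.3 to 48.8). The libraries were written by different Cell Ranger versions (3.1.0 and 6.0.1) with different gene lists, and the part of this in the split was not tested.

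Summed, Saa1 and Saa2 depended on which hepatic cells were compared. The ratio was 2.17 (interval 1.63 to 2.84) in hepatocyte-like cells, where the CCl4 library had 5 cells, and 2.58 (interval 1.97 to 3.40) in the low-UMI cluster. Pooled over both, it was 1.21 (interval 1.07 to 1.36), from 594 to 718 CPM, with hepatocyte-like cells making up 164 of 323 healthy but 5 of 329 CCl4 hepatic cells. With 30 principal components in place of 10 the low-UMI cluster held only 2 healthy cells and its ratio was 0.502.

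Saa4 went the other way. Healthy hepatocyte-like cells held 830 Saa4 UMIs (334 CPM, interval 311 to 357), and 124 of 164 cells had at least 1. The highest cell, with 10.6 times the median UMIs of its population, held 40. In the low-UMI cluster Saa4 went from 55 to 32 UMIs (207 to 70.7 CPM), a ratio of 0.341 (interval 0.213 to 0.536). Over all hepatic cells it went from 885 to 34 UMIs (321 to 69.0 CPM), a ratio of 0.215 (interval 0.148 to 0.302). The 5 CCl4 hepatocyte-like cells held 2 UMIs.

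Read against all genes of the low-UMI cluster, 8.16% of 6568 genes were at least 2-fold higher and 23.6% at least 2-fold lower in the CCl4 library, where Saa2 and Saa3 were higher, Saa4 lower and Saa1 between. Over pooled hepatic cells 20% of 8605 genes were higher and 17.7% lower, with Saa2 and Saa3 higher, Saa4 lower and Saa1 at 0.770. The summed hepatocyte markers were 20023 and 20596 CPM in the low-UMI cluster and 66992 and 23265 CPM in the pooled cells. Mesenchymal markers differed beside them, from 60.3 CPM with 5 of 15 detected to 2518 CPM with 15 of 15 in the low-UMI cluster. In the same cluster endothelial markers were at 1233 and 155 CPM, with 15 and 12 of 15 detected, and neutrophil markers at 0 and 177 CPM, with 0 and 4 of 8 detected. The part of these markers in the ratios was not tested.

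Saa1 was also counted in mesothelial-like cells of the CCl4 library. It had 12 UMIs in 232 healthy cells (3.16 CPM) and 192 in 892 CCl4 cells (11.7 CPM, interval 10.1 to 13.5), a ratio of 3.71 (interval 2.08 to 7.31), in a comparison where 11.5% of 13249 genes were at least 2-fold higher and 14.5% at least 2-fold lower. The healthy rate of 0.0517 UMIs per droplet lay at the background, which was 0.0695 in endothelial-like cells. The CCl4 rate was 0.215, against 0.00909 in T and NK-like, 0.0133 in mesenchymal-like and 0.00784 in cells of the Serpinb2-led cluster. The UMIs were spread over 74 cells (8.30%, interval 6.57 to 10.3), with 19 in the highest, and after thinning the share was 1.71% against 0.272% in T and NK-like cells.

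In mesothelial-like cells the counted Saa2 share was lower than in hepatic cells, and Saa1 per Saa3 UMI was higher than in the Serpinb2-led cluster. The source of the mesothelial Saa1 UMIs was not tested, and the split of Saa1 and Saa2 is uncertain. Saa2 made up 3.03% of Saa1 and Saa2 UMIs (6 Saa2, interval 1.12 to 6.48), against 43.5% in the hepatic cells of the same library. Alb was at 0.232 UMIs per droplet in these cells and 0.325 in mesenchymal-like cells. Saa1 was at 0.497 UMIs per 1000 Saa3 UMIs in mesothelial-like cells but at 0.0170 in the Serpinb2-led cluster, which held 5 Saa1 UMIs beside 294509 of Saa3. The 74 cells with Saa1 had a median of 527 Saa3 UMIs and a depth of 20012 UMIs, against 250 and 17243 in the other 818. Saa4 stayed at the counting floor in mesothelial-like cells, with 3 healthy and 2 CCl4 UMIs.

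Acute-phase genes were followed alongside as a list of 20. In mesothelial-like cells 17 had enough counts, 7 were at least 2-fold higher and 8 at least 2-fold lower, with a median log2 ratio of 0.21 against −0.03 over all genes, of which 11.5% were higher and 14.5% lower. Lcn2, an iron-siderophore binding protein, went from 6.59 to 317 CPM (ratio 48.2, interval 32.6 to 74.6). Ceruloplasmin (Cp), a copper carrier, went from 12.6 to 532 CPM (ratio 42.1), and Steap4, a metalloreductase, from 33.2 to 439 CPM (ratio 13.2). Complement C3 was already at 9975 CPM in healthy mesothelial-like cells and was at 11498 CPM after CCl4 (ratio 1.15). The lowest ratio was that of hepcidin (Hamp), a hepatocyte hormone, with 66 and 8 UMIs (ratio 0.0281), beside Alb at 219 and 12.7 CPM in the same cells. Each of the 8 lower members had at most 95 healthy UMIs in these cells. Healthy Alb was at 3.59 UMIs per droplet in mesothelial-like and 3.62 in endothelial-like cells. The part of free hepatocyte RNA in these lower ratios was not tested.

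In the low-UMI hepatic cluster all 20 genes had enough counts, 6 were at least 2-fold higher and 4 at least 2-fold lower, with a median log2 ratio of 0.01 against −0.26 over all genes, of which 8.16% were higher and 23.6% lower. Orm2, an orosomucoid, had the highest ratio, from 4 to 82 UMIs (12.01, interval 4.51 to 45.1), and C-reactive protein (Crp) the lowest, from 13 to 2 UMIs (0.0901, interval 0.00987 to 0.398). The abundant members moved less, with Orm1 at 1067 and 1310 CPM, haptoglobin (Hp) at 724 and 1173 CPM, hemopexin (Hpx) at 705 and 766 CPM and Hamp at 1248 and 894 CPM. Over pooled hepatic cells 2 of the 20 were at least 2-fold higher and 14 lower, against 20% and 17.7% of all genes.

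**Figure D4:**
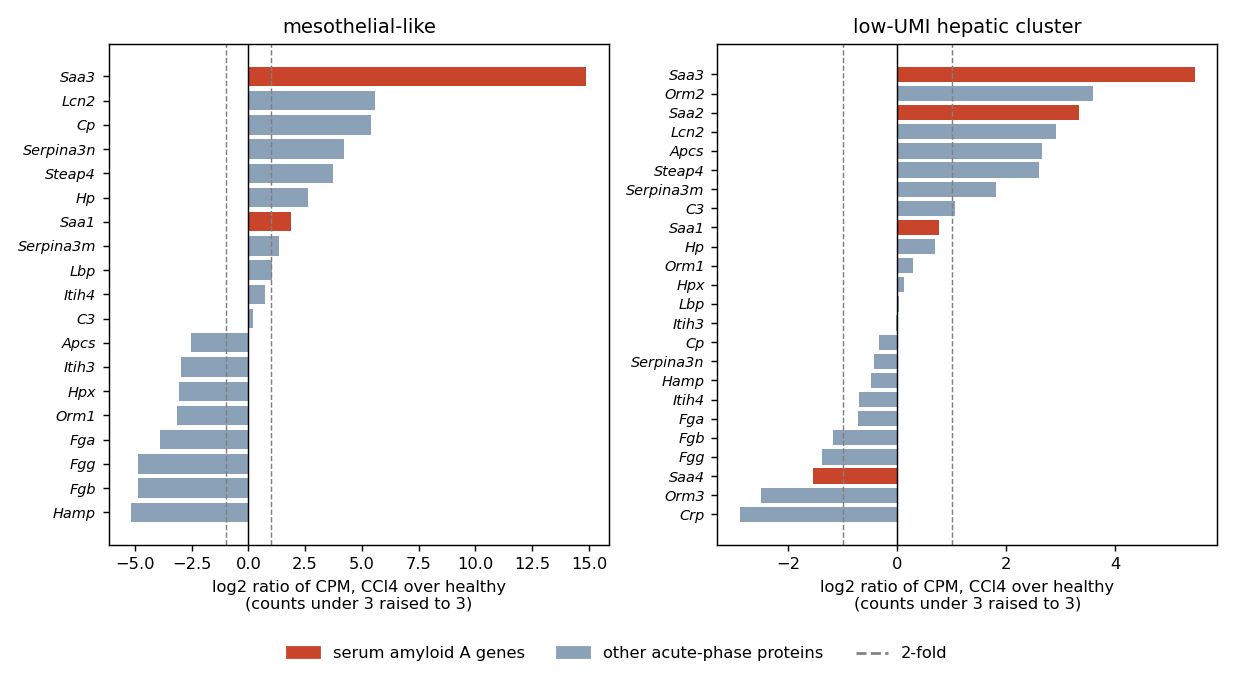
Log2 ratios of CPM, CCl4 over healthy, for the serum amyloid A genes (red) and the other acute-phase genes (grey-blue) with enough counts, in mesothelial-like cells (left) and the low-UMI hepatic cluster (right), with counts under 3 raised to 3 and dashed lines at 2-fold. The horizontal scales differ. Saa3 is the top bar of both panels, and in the hepatic cluster its 226 UMIs are no more per droplet than in lymphoid cells.

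A list of 22 cytokines, receptors and factors of acute-phase induction also held some inhibitors, such as Nfkbia. Of these 22 genes, 18 had enough counts in mesothelial-like cells. Of those, 4 were at least 2-fold higher and 5 at least 2-fold lower, against 11.5% and 14.5% of all genes. Their median log2 ratio was 0.26 against −0.03. Interleukin 6 (Il6) had 0 healthy and 53 CCl4 UMIs (3.24 CPM). Cebpd, a C/EBP factor, went from 133 to 417 CPM (ratio 3.14, interval 2.87 to 3.45), while Cebpb was at 551 and 687 CPM, Nfkbia at 217 and 352 CPM and Nfkbiz at 224 and 344 CPM. The interleukin 6 receptor chain Il6ra had the lowest ratio, from 148 to 16.9 CPM (0.114). In the low-UMI hepatic cluster 11 had enough counts, 1 was at least 2-fold higher and 4 at least 2-fold lower, against 8.16% and 23.6% of all genes, with Cebpb at 302 and 389 CPM and Cebpa at 177 and 48.6 CPM.

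Of 12 receptors and lipoprotein partners of serum amyloid A, 9 had enough counts in mesothelial-like cells, with 3 at least 2-fold higher and 4 at least 2-fold lower, against 11.5% and 14.5% of all genes. Cd14, a co-receptor of Toll-like receptors, went from 9.22 to 206 CPM (ratio 22.3, interval 16.0 to 32.1) and the lipoprotein receptor Scarb1 from 5.53 to 14.5 CPM (ratio 2.62). Selenos, a selenoprotein of the endoplasmic reticulum, was at 173 and 180 CPM. Apoa2, a lipoprotein component made by hepatocytes, had the lowest ratio, from 108 to 6.42 CPM. Their median log2 ratio was 0.06, against −0.03 over all genes. Of the same genes in the low-UMI hepatic cluster, 5 had enough counts, none was at least 2-fold higher and 2 were at least 2-fold lower, against 8.16% and 23.6% of all genes, with Apoa1 at 1312 and 2270 CPM.

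Across 20 sums per population and library, the genes most like Saa3 by Pearson r of log2(CPM + 1), among 8049 genes, were Gm10076 (0.875), the adhesion molecule Chl1 (0.870), the chemokine Cxcl13 (0.864), Tomm6 (0.858) and Pdgfra (0.857). The sums of 1 library share its depth, its background RNA, its Cell Ranger version and its gene list, and the part of these in r was not tested. For Saa1 and Saa2 summed they were Acaa1b (0.955), Mbl2 (0.952), Bhmt2 (0.951), Hpd (0.9504) and Gulo (0.949), genes of hepatocyte metabolism and secretion.

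Over the 892 mesothelial-like cells of the CCl4 library, the genes with the highest Spearman rho with Saa3 were Igfbp7 (0.448), Lcn2 (0.425), Fth1, the ferritin heavy chain (0.396), Tmem176a (0.393) and Cp (0.357). Those over the 638 cells of the Serpinb2-led cluster were Hp (0.619), Fth1 (0.589), Lcn2 (0.558), the mitochondrial superoxide dismutase Sod2 (0.526) and Cxcl13 (0.466). The cells of each population share 1 library, and the total UMIs of a cell had a rho of 0.258 and 0.283 with its Saa3 level. Msln and Upk3b were near the other end of the order, at −0.188 and −0.132 in the mesothelial-like cells.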

How the data were processed

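Droplet single-cell libraries (10x Genomics 3′ v2, per the labels) were made from perfused and digested livers purified on a Nycodenz gradient, 1 per group. The authors deposited whole-number UMI counts per gene and barcode without normalization, holding called cells only (lowest total 500 UMIs), which per the file headers were written by Cell Ranger 3.1.0 (healthy, 31053 genes) and 6.0.1 (CCl4, 32285 genes). Other deposited text files held barcodes and gene names. The submitters' processing notes list the builds mm10 and GRCh38 with no role, and the identifiers are those of mouse. RefSeq positions and promoters are from GRCm38.p6, where the 4 symbols all matched. Because RefSeq lists Saa2 as an older name of Saa1 and the reverse, genes were joined between the libraries by Ensembl identifier.

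Barcodes were kept from 500 UMIs and 200 genes upward when mitochondrial UMIs made up no more than 30%, and the top Scrublet scores were removed at 0.8% per 1000 cells (277 and 487 cells). Counts were clustered with scanpy 1.11.5 (2000 variable genes without mitochondrial, ribosomal, sex-linked and Saa genes, 10 components, 20 neighbours, Leiden resolution 1, seed 1). A name needed 3 markers at least 2-fold above all other cells with a UMI in at least 10% of cells. Intervals were exact Poisson (CPM), exact conditional binomial (ratios) and Clopper-Pearson (shares), at 95%. Ratios within a population were made where both libraries had at least 20 cells, and those of hepatocyte-like cells are given beside them although the CCl4 library had 5. A gene had enough counts when its higher CPM was above the level that 3 UMIs give in the smaller of both sums, and counts under 3 were raised to 3 for counts of genes and medians. The ratio script was tested on simulated data. TMM factors came from edgeR 4.0.16 in R 4.3.3. Named from each list were the 4 members with the most UMIs and those with the highest and lowest ratio among members of at least 10 UMIs, and for likeness the 5 highest genes. Msln, Upk3b, Wt1, Dcn, Col3a1, Pdgfra, Alb and, in cells split by Saa3, Lcn2 were picked after their values were seen, as were the likeness over the Serpinb2-led cluster and the cut of 50 Saa3 UMIs. The 4 genes and the lists were chosen with earlier results of these data known. Names rebuilt from markers can differ from those of the study.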

Additional observations from a re-analysis of the deposited data

Results flagged for a closer look

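Saa3 was also counted in barcodes that no main comparison used. Part of them returned in the alternatives without a mitochondrial limit or with doublets kept. The 1146 CCl4 barcodes that the filters removed held 59051 Saa3 UMIs, or 6143.69 CPM (Poisson interval 6094.23 to 6193.44), against 7 UMIs (1.43 CPM, interval 0.573 to 2.94) in the 695 healthy barcodes removed in the same way. This Saa3 level was singled out as a signal in data outside the main comparisons that lies above the level of the healthy library. The CCl4 library kept 8087 CPM of Saa3 over all its cells. Groups of 1 library allowed no search for outlying samples.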

How the results depend on the processing

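No paired analysis was possible because each group holds 1 library, and the number 1 that both carry pairs nothing. For the same reason no replicate could be left out, and the counting error of few UMIs limits the healthy mesothelial-like Saa3 value and the 5 CCl4 hepatocyte-like cells. The Saa3 level of CCl4 mesothelial-like cells, 23606 CPM, moved beyond its counting interval in most alternatives and kept its order of size. It was 24494.4 with TMM scaling, 32381.1 without the 50 most abundant genes, 21550.7 with every cell weighing the same, 30178.4 with free RNA subtracted, 24010.3 with a mitochondrial limit of 10%, 22041.0 with doublets kept, 24081.2 from 1000 UMIs per cell, 24169.8 with 30 components and 23962.6 with each library clustered alone. With the subtraction made from lymphoid cells without those of 50 or more Saa3 UMIs, chosen after seeing the data, it was 30454.7. The share of these cells with a Saa3 UMI was 98.0095% with doublets kept. The ratio to healthy cells ran from 27086 to 125734. The count of genes at least 2-fold higher, 1519, was 3383 under both subtractions and 1483 to 1710 otherwise.

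The ratio of Saa1 and Saa2 summed over pooled hepatic cells, 1.21, was not below 1 in any of the 14 alternatives run for it. It was 1.05353 with TMM scaling, 1.07264 without abundant genes, 1.82143 with cells weighing the same, 2.87998 and 2.71358 with the planned and the added subtraction, 1.5899 with a mitochondrial limit of 10%, 1.45676 with none, 1.00059 from 1000 UMIs, and 2.57526 and 2.16743 for the low-UMI cluster and the hepatocyte-like cells alone, both chosen after seeing the data. In the low-UMI cluster the ratio turned to 0.50167 with 30 components, where 2 healthy cells were left in it, and had no value from 1000 UMIs or with libraries clustered alone. The pooled Saa2 ratio stayed above 1 (3.33 to 11.0042) and that of Saa4 below 1 (0.187 to 0.519) in the 12 alternatives run for each. Scaling and subtraction give no share of cells.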
